A study of Mus musculus and Acomys cahirinus with 2 samples.

Results

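Genes of the cell contacts that hold skin epithelium together were followed through adult ear skin of a spiny mouse, Acomys cahirinus, and of the house mouse, Mus musculus. Spiny mice are known for regrowing ear tissue after injury, which house mice largely do not. They are 10 genes, namely 4 tight junction genes (Cldn1, Cldn4, Ocln and Tjp1), 3 gap junction genes (Gja1, Gjb2 and Gjb6), 2 adherens junction genes (Cdh1 and Cdh3) and Epcam. Each was taken by its symbol, letter case ignored, and each symbol stood once in both gene lists, so that all 10 were found among 15710 symbols shared by the 24509 genes of the Acomys list and the 28692 genes of the Mus list.

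In tight junctions, claudins such as those encoded by Cldn1 and Cldn4 form the sealing strands, occludin (Ocln) sits in the same strands, and the zonula occludens scaffold encoded by Tjp1 ties them to actin. Gap junctions are channels built of connexins, here those of Gja1, Gjb2 and Gjb6, through which neighbouring cells exchange small molecules. Adherens junctions rest on classical cadherins: E-cadherin (Cdh1) throughout the epidermis and P-cadherin (Cdh3), known in mouse from the basal layer and the growing follicle, while the Epcam protein is a membrane glycoprotein that binds claudins. In mouse epidermis the sealing tight junctions lie in the granular layer, the last living layer, and loss of Cldn1 is known to make newborn mice die of water loss.

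The study sequenced single cells of adult ear skin by the droplet method of 10x Genomics, which reads the 3' ends of transcripts, with 1 library of Acomys and 1 of Mus, both labelled day 0. The series text calls the ears injured, and the labels give no strain, genotype or number of animals. With 1 library per species there is no replicate and no test: every difference below joins species, animal, library and gene annotation, which cannot be told apart, and intervals cover counting error only. The libraries held 71042559 UMIs in Acomys and 130039670 UMIs in Mus (unique molecular identifiers, each marking a captured transcript), and gave 4603 and 6556 cells with medians of 7499 and 11748.5 UMIs. Of their barcodes, 32 stood in both sets of cells, 0.695% of the Acomys and 0.488% of the Mus cells, beside 40.9 expected from random draws.

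Cells were clustered in each library by itself, with all listed junction genes left out of the genes that shaped the clusters, and clusters were named from marker genes. The 6 classes used are named for the type they resemble. In Acomys they held 1065 basal-like, 869 spinous-like and 141 granular-like keratinocytes, 1226 hair follicle-like cells, 296 sebocyte-like cells and 107 blood endothelium-like cells. In Mus they held 3155 basal-like, 1561 spinous-like and 64 granular-like keratinocytes, 902 hair follicle-like, 279 sebocyte-like and 50 blood endothelium-like cells. All 13 blood endothelial markers had UMIs in the endothelial class of both libraries, with a summed level of 5322 CPM in Acomys and 10784 CPM in Mus, against 36.1 to 64.9 CPM in the other Acomys classes and 16.3 to 46.8 CPM in the other Mus classes. Clusters that did not pass the naming rule stayed out of the classes, 839 cells in Acomys and 508 in Mus. Among them was the Acomys cluster with the most cells (803, 17.4%). Counting unnamed clusters in by their best-scoring type raised the basal-like class to 1868 cells in Acomys and 3663 in Mus. CPM, the usual depth-scaled unit for counts, was taken here over the UMIs on shared genes. The 13 granular markers summed to 25261 CPM in the granular class of Acomys and 135890 CPM in that of Mus. In the same class the 7 spinous markers summed to 221650 CPM in Acomys and 109669 CPM in Mus. The granular classes thus differ in marker levels, and the part of this in the granular ratios below was not tested. In the endothelial class, 6 of 7 spinous markers also had UMIs and summed to 14633 CPM in Acomys and 9186 CPM in Mus, so epithelial RNA that is not of these cells was present there, and its part in the low epithelial values of that class was not tested.

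In the mouse annotation (GENCODE vM21, build GRCm38) Cldn1 lies at chr16:26356642-26371841, Cldn4 at chr5:134945119-134946934, Ocln at chr13:100496507-100552718 and Tjp1 at chr7:65296165-65527781, all on the minus strand. Gja1 lies at chr10:56377330-56402513 on the plus strand, and Gjb2 (chr14:57098600-57104702) and Gjb6 (chr14:57123303-57133611) lie side by side on the minus strand. Cdh3 (chr8:106510891-106557297) and Cdh1 (chr8:106603351-106670246) are neighbours on the plus strand with 46053 bases between them, and Epcam lies at chr17:87635979-87651129 on the plus strand. Apart from Tjp1, none overlaps another annotated gene.

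The promoters of 5 of the genes are shown because these genes carry the main patterns described below: Cldn4, Ocln and Epcam, highest in the granular class of both libraries, and Gjb2 and Gjb6, neighbours on mouse chromosome 14 that were nearly absent from most Acomys classes. Each line gives the 250 bases before the RefSeq transcription start in the mouse build GRCm38.p6, 5′ to 3′ on the gene's own strand. Capitals mark matches, on either strand, to TGANTCA (bound by AP-1), AACCGGTT or its core ACCGGT (bound by Grainyhead-like factors, which in mouse are known to act on Cldn4 and Cdh1), CAGGTG (the E-box bound by the Snail and Zeb repressors), GGGCGG (the GC box) and TATAAA (the TATA box). The windows are chr5:134946935-134947184 on the minus strand for Cldn4, chr13:100552719-100552968 on the minus strand for Ocln, chr17:87635729-87635978 on the plus strand for Epcam, chr14:57104703-57104952 on the minus strand for Gjb2 and chr14:57133612-57133861 on the minus strand for Gjb6.
Cldn4: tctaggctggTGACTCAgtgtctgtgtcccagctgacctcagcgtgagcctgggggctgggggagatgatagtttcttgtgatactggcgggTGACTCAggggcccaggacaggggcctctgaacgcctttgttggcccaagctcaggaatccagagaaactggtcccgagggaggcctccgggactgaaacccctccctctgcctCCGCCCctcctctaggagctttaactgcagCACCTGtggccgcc
Ocln: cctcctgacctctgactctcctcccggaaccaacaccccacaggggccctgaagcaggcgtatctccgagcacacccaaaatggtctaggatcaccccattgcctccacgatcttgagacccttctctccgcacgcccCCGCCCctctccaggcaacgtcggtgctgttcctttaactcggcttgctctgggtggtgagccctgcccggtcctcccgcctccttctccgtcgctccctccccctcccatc
Epcam: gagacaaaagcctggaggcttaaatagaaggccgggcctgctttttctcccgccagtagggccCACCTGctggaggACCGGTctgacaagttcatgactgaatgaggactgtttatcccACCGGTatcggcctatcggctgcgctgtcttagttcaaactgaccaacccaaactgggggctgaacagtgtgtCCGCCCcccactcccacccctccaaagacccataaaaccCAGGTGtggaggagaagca
Gjb2: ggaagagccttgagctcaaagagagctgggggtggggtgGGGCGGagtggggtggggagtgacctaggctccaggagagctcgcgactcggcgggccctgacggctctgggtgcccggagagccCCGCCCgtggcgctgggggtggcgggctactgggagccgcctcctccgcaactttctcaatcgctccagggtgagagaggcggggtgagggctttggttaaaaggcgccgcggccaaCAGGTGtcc
Gjb6: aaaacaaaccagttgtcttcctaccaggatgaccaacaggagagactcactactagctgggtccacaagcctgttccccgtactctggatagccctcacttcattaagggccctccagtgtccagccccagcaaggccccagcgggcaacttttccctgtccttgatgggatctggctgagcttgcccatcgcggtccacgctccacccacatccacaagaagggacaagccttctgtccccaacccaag
The Cldn4 window held 2 AP-1 matches, 1 E-box and 1 GC box, and the Epcam window held 2 Grainyhead-like cores, 2 E-boxes and 1 GC box. A single GC box stood in the Ocln window shown, while the window of a second RefSeq start of Ocln held 2 E-boxes and 1 GC box; 1 E-box and 2 GC boxes stood in the Gjb2 window, and none of these letters occurred in the Gjb6 window. Over all 32851 promoter windows of the same length, 6.75% held the AP-1 letters, 0.116% the full Grainyhead-like letters, 1.86% their core, 17.2% the E-box, 32.7% the GC box and 12.4% the TATA box. These are matches of letters in the mouse genome only; Acomys promoters were not analysed here, and RefSeq windows were found for 8 of the 10 genes, not Cdh1 and Cdh3.

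Over the 6 classes, the full order of levels was the same in both libraries for Cdh3 and Epcam and differed for the other genes. Of the 10 genes, 8 had their highest class in common: Cldn4, Ocln, Gjb6 and Epcam in granular-like cells, Tjp1 in endothelium-like cells, Gja1 in sebocyte-like cells, and Cdh1 and Cdh3 in follicle-like cells. For Cdh1 in Acomys, Gjb6 in Mus and Cdh3 in both libraries, the highest class stood above the next by less than counting error, so for these 3 genes the shared highest class is not firm. Among all genes with at least 10 UMIs over the classes of each library, the highest class was shared by 41.3% (3945 of 9553). A gene was counted as higher or lower in Acomys where its CPM ratio was at least 2 or at most 0.5, its exact 95% interval excluded 1 and at least 10 UMIs were seen in one library.
By that rule, in basal-like cells 2 of the 10 genes were higher and 5 lower, beside 15.2% of all genes higher and 39.1% lower. In spinous-like cells 3 were higher and 4 lower, beside 15.2% and 41.6% of all genes, and in granular-like cells 3 of 9 measured were higher and 2 lower, beside 23.6% and 31.9%. Follicle-like cells had 2 higher and 4 lower, beside 15.9% and 39.7% of all genes, and sebocyte-like cells had 2 of 9 higher and 2 lower, beside 11.4% and 44.7%. The endothelium-like class had 1 higher and 1 lower of 4 measured, beside 15.2% and 29.5%. More genes were lower than higher in Acomys in every class over the whole list, and the lower calls among the 10 genes, read against that background, are not a result about them as a group.

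**Figure D1:**
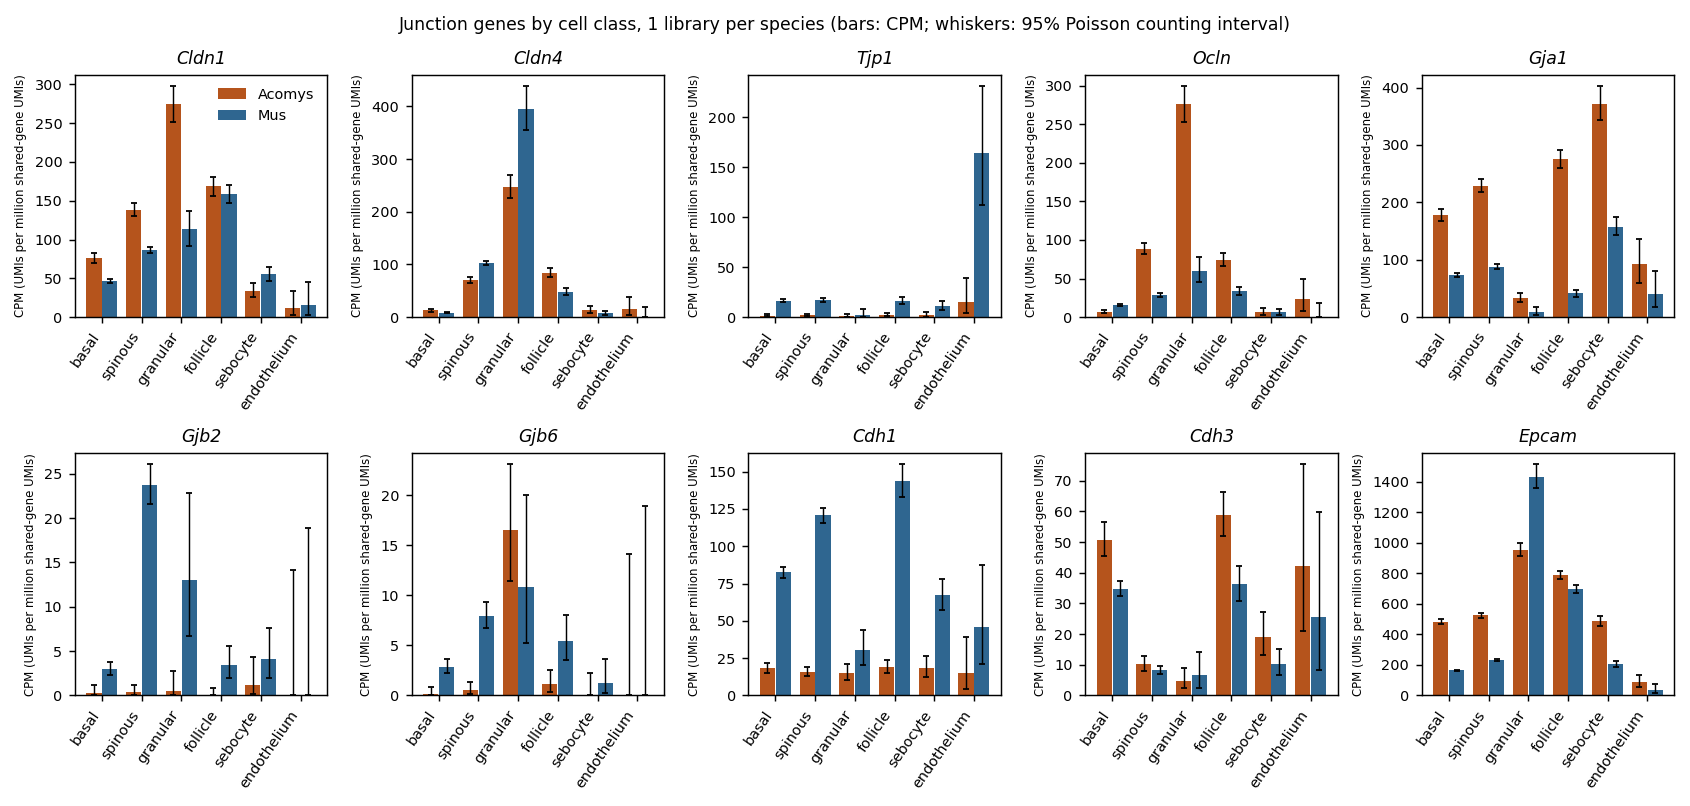
CPM of each gene (y axis, one panel per gene, each with its own scale from 0) in the 6 cell classes (x axis), with Acomys bars left of Mus bars and whiskers for the 95% Poisson counting interval. Ocln and Gja1 bars stand higher in Acomys in spinous-like, granular-like and follicle-like cells, Cdh1 bars and, outside the granular class, Tjp1 bars stand higher in Mus, and Gjb2 bars are near 0 in Acomys.

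Among the claudins, Cldn1 and Cldn4 both rose through the epidermal layers in both libraries, and neither was 2-fold apart between the libraries in most classes. Cldn1 was at 75.8 CPM in basal-like, 138 CPM in spinous-like and 274 CPM in granular-like cells of Acomys, against 46.7, 86.7 and 113 CPM in Mus. In the follicle it stood at 168 CPM in Acomys, against 158 CPM in Mus (ratio 1.06, 95% interval 0.959 to 1.18). The granular class was thus the highest for Cldn1 in Acomys, whereas in Mus the follicle stood above the granular class by more than counting error. Sebocyte-like cells were low in both, at 34.3 CPM in Acomys, against 55.1 CPM in Mus. Only the granular ratio, 2.43 (1.96 to 3.02), passed the 2-fold rule, and it did so in 8 of 14 alternative settings, with log2 ratios of 0.60 to 1.4.
Cldn4 had a steeper rise. It was at 13.1, 70.6 and 247 CPM in basal-like, spinous-like and granular-like cells of Acomys, and at 8.30, 103 and 396 CPM in those of Mus. No class passed the 2-fold rule for Cldn4, the ratios running from 0.624 (0.544 to 0.716) in the granular class to 1.85 (0.958 to 3.65) in sebocyte-like cells. Follicle-like cells had 84.8 CPM in Acomys, against 47.9 CPM in Mus, and sebocyte-like cells 13.8 and 7.45 CPM. In Mus a single spinous-like cluster of 348 cells led by Krt24 and Krt78, 5.31% of the cells, held 47.0% of the Cldn4 UMIs at 280 CPM. The other spinous-like clusters of Mus were at 58.2 and 15.5 CPM, so the Mus spinous level of Cldn4 was mostly that cluster's.

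Ocln, the occludin gene, was the tight junction gene that stood highest in Acomys relative to Mus in the upper layers. Acomys had 7.34 CPM in basal-like, 88.5 CPM in spinous-like and 276 CPM in granular-like cells, a climb that was flatter in Mus at 15.5, 29.0 and 59.8 CPM. The library that was lower in the basal class was therefore higher above it. In the granular class the Acomys level was 4.61-fold that of Mus (3.49 to 6.2), in the spinous class 3.05-fold (2.72 to 3.42) and in the follicle 2.2-fold (1.81 to 2.68), with 74.4 CPM in Acomys, against 33.8 CPM in Mus follicle-like cells. After each cell was thinned to 2500 UMIs, 41.1% of Acomys and 12.5% of Mus granular-like cells had an Ocln UMI, and before thinning 90.8% and 54.7%, while the share in endothelium-like cells was 3.74% in Acomys and 0% of 50 cells in Mus, whose exact upper bound is 7.11%. The granular and spinous calls held in all 14 alternatives and the follicle call in 11. The granular classes compared differ in marker levels, as given above. The lower basal level, a ratio of 0.474 (0.342 to 0.644), held in 6 of 14 and turned to a log2 ratio of 0.45 without doublet removal.

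Tjp1, which encodes the scaffold under the strands, was scarce in Acomys. All Acomys cells together gave 54 UMIs of it, against 945 in Mus. Keratinocytes of the basal and spinous classes had 1.56 and 2.01 CPM in Acomys and 16.5 and 17.5 CPM in Mus, which made the basal level 10.6-fold lower (5.67 to 22.2) and the spinous level 8.68-fold lower (5.19 to 15.7) in Acomys. Endothelium-like cells were the highest class in both libraries, at 15.3 CPM from 4 UMIs in Acomys and 164 CPM from 32 UMIs in Mus, a 10.7-fold difference (3.79 to 41.6). Both Mus endothelial clusters were high, at 186 and 145 CPM. Follicle-like cells had 2.43 and 16.3 CPM and sebocyte-like cells 1.80 and 10.8 CPM in Acomys and Mus. Granular-like cells had 2 UMIs in each library and were not compared. The ratio lay between 0.0935 and 0.167 in all 5 classes measured, with overlapping intervals in cells of different kinds. In the mouse annotation 3 other genes overlap Tjp1, and since strand use in counting is not stated, reads shared with them cannot be told apart.

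**Figure D2:**
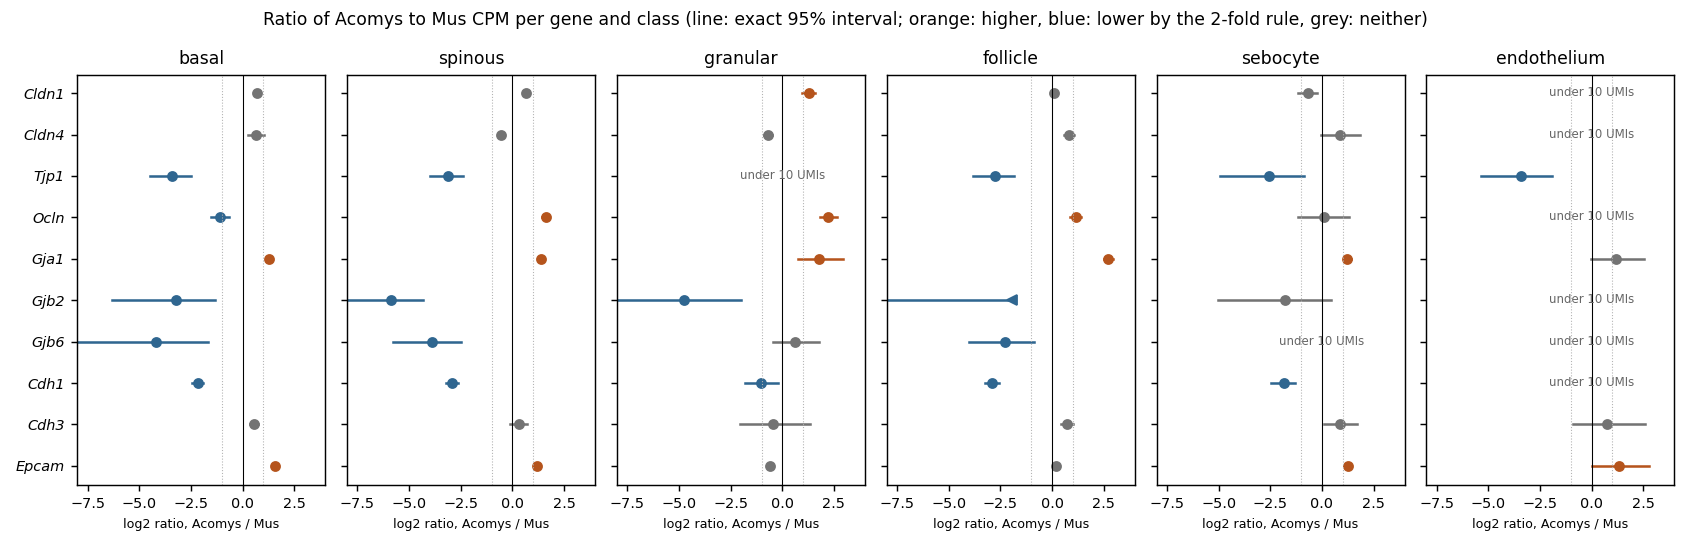
Log2 ratio of Acomys to Mus CPM (x axis) for each gene (rows) in each class (panels), with the exact 95% counting interval as a line, drawn no further than −8. Orange marks genes higher and blue genes lower in Acomys by the 2-fold rule, grey neither, and the left-pointing triangle gives the upper 95% bound for Gjb2 in the follicle, where Acomys had no UMI.

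Gja1 encodes the most widespread connexin of skin, known from basal and spinous keratinocytes, and it was higher in Acomys nearly throughout. It stood at 177 CPM in basal-like, 229 CPM in spinous-like and 33.1 CPM in granular-like cells of Acomys, and at 73.0, 87.6 and 9.78 CPM in Mus. Both libraries therefore had Gja1 low in the granular class, the opposite of the claudins and occludin. Sebocyte-like cells were the highest of the 6 classes, at 372 CPM in Acomys, against 158 CPM in Mus (ratio 2.36, 2.07 to 2.69). Acomys was higher by the 2-fold rule in 5 of 6 classes, by 2.43-fold (2.25 to 2.62) in basal-like and 2.61-fold (2.44 to 2.80) in spinous-like cells. With unnamed clusters counted in, the basal log2 ratio was 0.80 and the call was lost. That setting added the unnamed Acomys cluster of 803 cells, which had 90.2 CPM of Gja1. It also added the unnamed Mus clusters, among them one led by Krt6a and Krt16 in which Mus Gja1 was highest. The part of each in the change was not tested. In endothelium-like cells the ratio was 2.24 (0.975 to 5.78), from 24 UMIs in Acomys and 8 in Mus.
The largest Gja1 ratio was in the follicle class, with 275 CPM in Acomys, against 41.6 CPM in Mus (6.61-fold, 5.67 to 7.73). That class is built of different clusters in the libraries. In Acomys the cluster of 589 cells led by Smim1 and Aspn, with Lhx2 among its leading genes, had 547 CPM and a cluster marked by Krt75 and Krt35 had 463 CPM, whereas the Krt79-marked cluster had 59.5 CPM and the Prss22-led cluster, which also had Lhx2 among its leading genes, 110 CPM. In Mus the Lhx2- and Lgr5-marked cluster of 140 cells had 190 CPM, the Sostdc1-marked cluster of 577 cells had 18.5 CPM and the Krt79-marked cluster 16.3 CPM. Follicle clusters of the same library thus differed widely in Gja1, and Lhx2 marked both high and low ones in Acomys. Across alternative settings the follicle log2 ratio ran from 1.75 to 4.16.
The granular ratio of 3.38 (1.68 to 7.70) rested on 9 Mus UMIs. It was kept in 11 of 13 alternatives and reversed in 2 in which more Mus cells were counted as granular, to a log2 ratio of −0.46 with a minimum of 500 UMIs and −0.083 at cluster resolution 0.5.

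Gjb2, known in mouse and human as a connexin of hyperproliferative and wound-edge epidermis, was the member most nearly confined to 1 library by count. All Acomys cells gave 9 UMIs of it and all Mus cells 1169, and over all barcodes, cells or not, the libraries gave 18 and 1614. Acomys had 0.312 CPM in basal-like, 0.403 CPM in spinous-like and 0.486 CPM in granular-like cells, from 2, 3 and 1 UMIs, against 2.94, 23.8 and 13 CPM in Mus. The spinous level was 59.0-fold lower in Acomys (20.1 to 287). In follicle-like cells Acomys had no UMI and Mus 16, and the exact 95% interval of the ratio ended at 0.264. Sebocyte-like cells had 2 UMIs in Acomys and 10 in Mus, a difference that missed the rule. The lower calls in basal-like, spinous-like, granular-like and follicle-like cells held in every alternative that gave a value. Free RNA, read from barcodes of 1 to 10 UMIs, had no Gjb2 UMI in Acomys and 31.9 CPM in Mus, so the basal Mus level of 2.94 CPM was within what 10% of free RNA would bring. The Mus follicle and sebocyte levels, 3.47 and 4.14 CPM, stood little above it, and the part of free RNA in them was not tested.
Within Mus, Gjb2 was not spread evenly. A cluster of 68 cells led by Krt6a and Krt16, keratins known from wounded and stressed mouse epidermis, made up 1.04% of the cells and held 51.2% of all Gjb2 UMIs, at 366 CPM. The Krt24- and Krt78-led spinous-like cluster held a further 25.8%, at 63.6 CPM. The Krt6a-led cluster did not pass the naming rule. Its cells had a median of 39430 UMIs, and whether the cluster holds doublets beyond those removed was not tested.
With a minimum of 500 UMIs for a cell, each library had a cluster in which Krt16 was highest. In Acomys it held 220 barcodes with 10472 CPM of Krt16 and 0 UMIs of Gjb2 among 103614 UMIs on shared genes, with an exact 95% upper limit of 35.6 CPM. In Mus it held 741 barcodes with 1814 CPM of Krt16 and 196 CPM of Gjb2 (181 to 212). The barcodes had a median of 610 UMIs in Acomys and 1208 in Mus. The Mus level is a sum over barcodes of unequal depth and was not computed at the Acomys depth, so the 0 UMIs do not show a difference between such cells. Their Gja1 level was 154 CPM in Acomys and 174 CPM in Mus. These clusters were compared after their values were seen, and the counts of Krt6a could not be set side by side, since the Acomys list holds no such symbol.

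Gjb6, whose gene lies 18600 bases from Gjb2 on mouse chromosome 14 and which encodes a partner connexin, was also scarce in Acomys but not in the same way. Of its 44 UMIs in Acomys cells, 34 fell in the granular-like cluster, where the level was 16.5 CPM, against 10.9 CPM in Mus granular-like cells (ratio 1.52, 0.735 to 3.45). Elsewhere Acomys had 0.156 CPM in basal-like, 0.537 CPM in spinous-like and 1.10 CPM in follicle-like cells, against 2.90, 7.94 and 5.42 CPM in Mus. The spinous level was 14.8-fold lower in Acomys (5.65 to 54.9), the basal level 18.6-fold lower from a single UMI (3.22 to 744) and the follicle level 4.91-fold lower (1.85 to 16.4). In Mus the gene was highest in the Krt6a-led cluster at 45.2 CPM, followed by the Lhx2- and Lgr5-marked follicle cluster at 22.0 CPM and the Krt24- and Krt78-led cluster at 20.2 CPM. In Acomys 77.3% of its UMIs thus came from 3.06% of the cells.

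**Figure D3:**
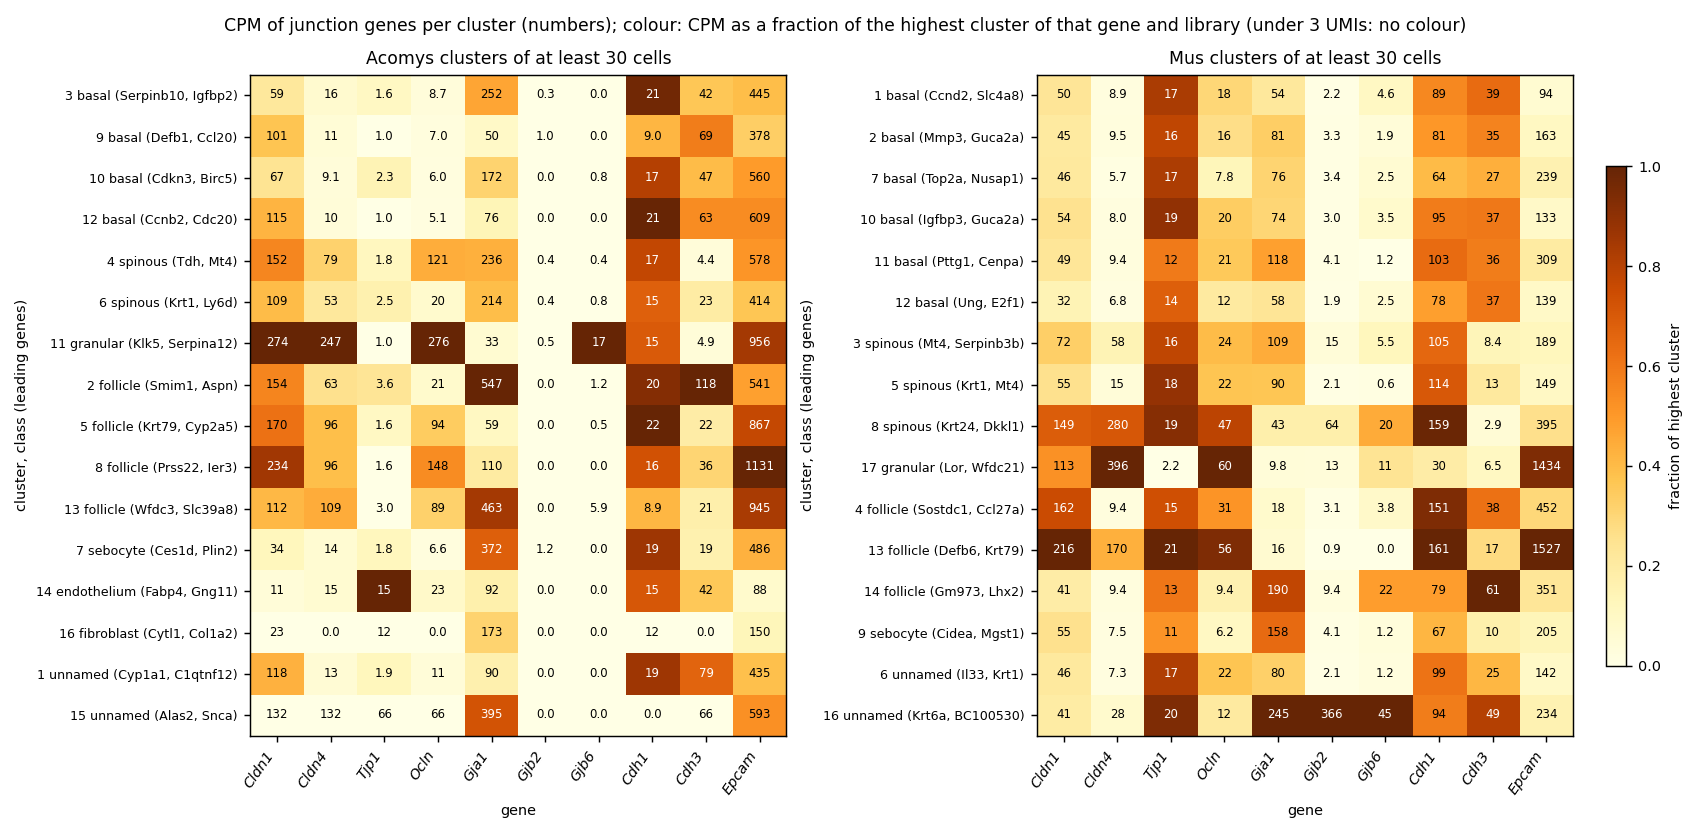
CPM of the 10 genes (columns) in each cluster of at least 30 cells (rows, with class and 2 leading genes), Acomys left and Mus right, with colour for the level relative to the highest cluster of that gene and library and none under 3 UMIs. Cldn1, Cldn4, Ocln and Gjb6 peak in granular cluster 11 of Acomys, and Gjb2, Gjb6 and Gja1 peak in the Krt6a-led cluster 16 of Mus.

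Cdh1, the gene of E-cadherin, was lower in Acomys in all 5 epithelial classes and hardly varied there. Its level was 18.4, 16.0 and 15.1 CPM in basal-like, spinous-like and granular-like cells, 19.2 CPM in follicle-like and 18.6 CPM in sebocyte-like cells of Acomys. The same classes of Mus had 82.6, 121, 30.4, 143 and 67.1 CPM. None of the steps between neighbouring Acomys classes exceeded counting error, and the endothelium-like cells of that library, with 15.3 CPM from 4 UMIs, were within the same range. Acomys was 4.49-fold lower (3.72 to 5.45) in basal-like, 7.55-fold lower (6.28 to 9.15) in spinous-like and 7.47-fold lower (5.97 to 9.45) in follicle-like cells, and these calls held in all 14 alternatives. In the granular class the difference was 2.02-fold (1.17 to 3.48) and kept its call in 10 of 14, with log2 ratios of −3.17 to −0.62. With cells thinned to 2500 UMIs, 3.38% of Acomys and 11.9% of Mus basal-like cells had a Cdh1 UMI, and before thinning 10.1% and 44.3%. The thinned share in endothelium-like cells was 2.80% (0.582 to 7.98) in Acomys and 4.0% (0.488 to 13.7) in Mus, and the unthinned share 3.74% and 18.0%, with median depths of 3383 and 5427.5 UMIs in that class against 9051 and 11046 in the basal class. Free RNA held 7.90 CPM of Cdh1 in Acomys and 84.7 CPM in Mus.

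Cdh3, the gene of P-cadherin, was, with Cldn4, one of 2 genes that passed the 2-fold rule in no class. Basal-like cells had 50.7 CPM in Acomys, against 34.8 CPM in Mus, spinous-like cells 10.2 and 8.20 CPM, and follicle-like cells 59.0 and 36.2 CPM. The ratios in these classes were 1.46 (1.28 to 1.66), 1.24 (0.934 to 1.65) and 1.63 (1.34 to 1.99). Both libraries had a much lower level above the basal layer. Sebocyte-like cells had 19.2 and 10.4 CPM. Within the follicle the highest clusters were the Smim1- and Aspn-led one in Acomys, at 118 CPM, and the Lhx2- and Lgr5-marked one in Mus, at 61.3 CPM. Endothelium-like cells had 11 UMIs in Acomys and 5 in Mus, or 42.1 and 25.6 CPM, beside 30.3 and 22.1 CPM in free RNA.

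Epcam was strongly read in both libraries, and the difference between them depended on the class. In Acomys it stood at 483 CPM in basal-like, 525 CPM in spinous-like and 486 CPM in sebocyte-like cells, against 165, 231 and 205 CPM in Mus. The ratios were 2.94 (2.80 to 3.08), 2.28 (2.18 to 2.38) and 2.36 (2.11 to 2.65). In the granular class Acomys had 956 CPM and Mus 1434 CPM (ratio 0.667, 0.621 to 0.715), short of the 2-fold rule, and the log2 ratio ran from −0.62 to 0.97 over the alternatives, so its direction was not settled. The follicle classes lay at 791 and 696 CPM. Mus Epcam was concentrated, with 1527 CPM in the Krt79-marked follicle cluster and 1434 CPM in granular-like cells but 94 to 309 CPM over the 6 basal-like clusters. Among basal-like cells thinned to 2500 UMIs, 50.3% had an Epcam UMI in Acomys and 18.1% in Mus, and before thinning 89.5% and 56.4%. In endothelium-like cells the thinned shares were 9.35% and 4.0%. The endothelial ratio of 2.46 (1.02 to 6.78) rested on 23 and 7 UMIs beside free RNA of 395 CPM in Acomys and 253 CPM in Mus.

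Counted per cell after thinning to 2500 UMIs, a granular-like cell showed on average 2.02 of the 10 genes in Acomys and 1.73 in Mus, the highest of the classes. Basal-like cells showed 0.999 in Acomys and 0.607 in Mus, spinous-like cells 1.36 and 0.965, and follicle-like cells 1.57 and 1.23. Endothelium-like cells showed 0.421 and 0.4. The rank of the classes by this measure was the same in both libraries from granular through follicle, spinous, sebocyte and basal to endothelium-like cells, sebocyte-like cells having 1.15 and 0.685.

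Set against the basal class of the same library, only 1 pair of member and class changed in opposite directions in Acomys and Mus. Gja1 in follicle-like over basal-like cells had a log2 ratio of 0.63 in Acomys and −0.81 in Mus, and the difference was not tested. In spinous-like cells 5 of the 10 genes stood above and 1 below the basal class by more than counting error in Acomys, and 8 and 1 in Mus. The counts for the granular class were 5 and 2 in Acomys and 6 and 4 in Mus. These counts had no fold limit, and counting intervals narrow with more UMIs. The basal classes held 6407542 UMIs on shared genes in Acomys and 23137873 in Mus. No such count over all genes is given, so the counts are neither a result about the 10 genes nor a difference between the libraries.

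By pattern over the 16 clusters of at least 30 cells in each library, some members resembled each other. Likeness was the Pearson correlation of log2(CPM + 10), ranked over the genes reaching 50 CPM in a cluster, 5037 genes in Acomys and 4733 in Mus, given as a description with no p, since clusters of a library share its depth and free RNA. In Acomys, Cldn4 and Ocln were most like each other among the members (r = 0.933), and Cldn1 was close to Epcam (0.866). In Mus the pair of Cldn4 and Ocln had 0.822, Cldn1 and Epcam 0.761, and Gjb6 was most like Gjb2 (0.884). Mus Epcam was most like Spint2 (0.937), Nfe2l3 (0.924) and Cldn3 (0.892), and Mus Cdh1 was close to Ctnnd1, the p120 catenin gene (0.892). Mus Cdh3 was most like Ccnd1 (0.953) and Lamb3 (0.94). Examples of genes among the 50 most alike in both libraries are Wnt10a for Cdh3 (0.796 in Acomys and 0.870 in Mus), Prss8 for Epcam (0.711 and 0.853) and Tom1 for Cldn4 (0.900 and 0.969). None was found for Tjp1, Gjb2 and Cdh1.
The genes most alike to the other members in Acomys were Mapk13 for Cldn1 (0.889), Serpinb13 (0.972), Wfdc21 (0.922) and Wfdc12 (0.903) for Gjb6, Pycard for Gja1 (0.779), Zfp362 for Cdh3 (0.892) and Yars2 for Cdh1 (0.906). The values for Tjp1 (Cep126, 0.989) and Gjb2 (Timm17a, 0.7) rested on 54 and 9 UMIs. Those for Gjb6 rested on 44 UMIs, 34 of them in the granular-like cluster. Acomys Cdh1 varied little between classes and had 0 UMIs in an unnamed cluster of 36 cells, whose part in its value was not tested. In Mus they were Tmem45a for Cldn1 (0.935), Slc39a2 for Cldn4 (0.983), Cyp3a13 for Ocln (0.927), Lgals7 for Tjp1 (0.925), Psmb5 for Gja1 (0.864), Kcmf1 for Gjb2 (0.860; Gjb6 at 0.884 was not ranked, being under 50 CPM in every cluster) and Laptm4a for Cdh1 (0.912).

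The wider junction lists, 120 genes with the 10 members among them, had 101 symbols in both gene lists, and 91 of these were not members. Of these 91, genes of at least 10 CPM in one library were counted. In basal-like cells 5 of 39 were higher and 19 lower in Acomys, beside 14.5% of all genes higher and 37.7% lower, with a median log2 ratio of −0.99 beside −0.40 over all genes. Spinous-like cells had 2 of 40 higher and 21 lower, beside 14.4% and 39.1% (median −1.03 beside −0.47), and granular-like cells 7 of 35 higher and 13 lower, beside 23.5% and 36.3% (−0.69 beside −0.24). Follicle-like cells had 3 of 44 higher and 19 lower, beside 15.2% and 37.1% (−0.67 beside −0.37). Sebocyte-like cells had 3 of 43 higher and 20 lower, beside 12.2% and 43.9% (−0.66 beside −0.70), and endothelium-like cells 1 of 28 higher and 9 lower, beside 15.2% and 29.5% (−0.44 beside −0.12).
By list, the gap junction genes, members included, had median log2 ratios of 0.48 over 6 genes in basal-like, −0.66 over 6 in spinous-like and 1.12 over 8 in granular-like cells. Their basal counts were 3 higher and 2 lower, their spinous counts 1 and 1, and their granular counts 4 and 1. In follicle-like, sebocyte-like and endothelium-like cells the medians were 0.45 over 5, −1.88 over 6 and 0.06 over 6. Their follicle counts were 2 and 1, their sebocyte counts 1 and 4, and their endothelial counts 0 and 0. The tight junction list had 1 higher and 9 lower of 20 in basal-like cells and 2 and 11 of 21 in spinous-like cells. Its granular counts were 4 and 7 of 18 and its follicle counts 2 and 9 of 23. In sebocyte-like and endothelium-like cells they were 2 and 9 of 21 and 0 and 4 of 10. The adherens junction list had 1 and 7 of 13 in basal-like cells and 0 and 7 of 12 in spinous-like cells. Its granular counts were 1 and 4 of 9 and its follicle counts 0 and 7 of 14. In sebocyte-like and endothelium-like cells they were 0 and 6 of 14 and 1 and 5 of 13. The medians and shares over all genes are those given above for the same classes.

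**Figure D4:**
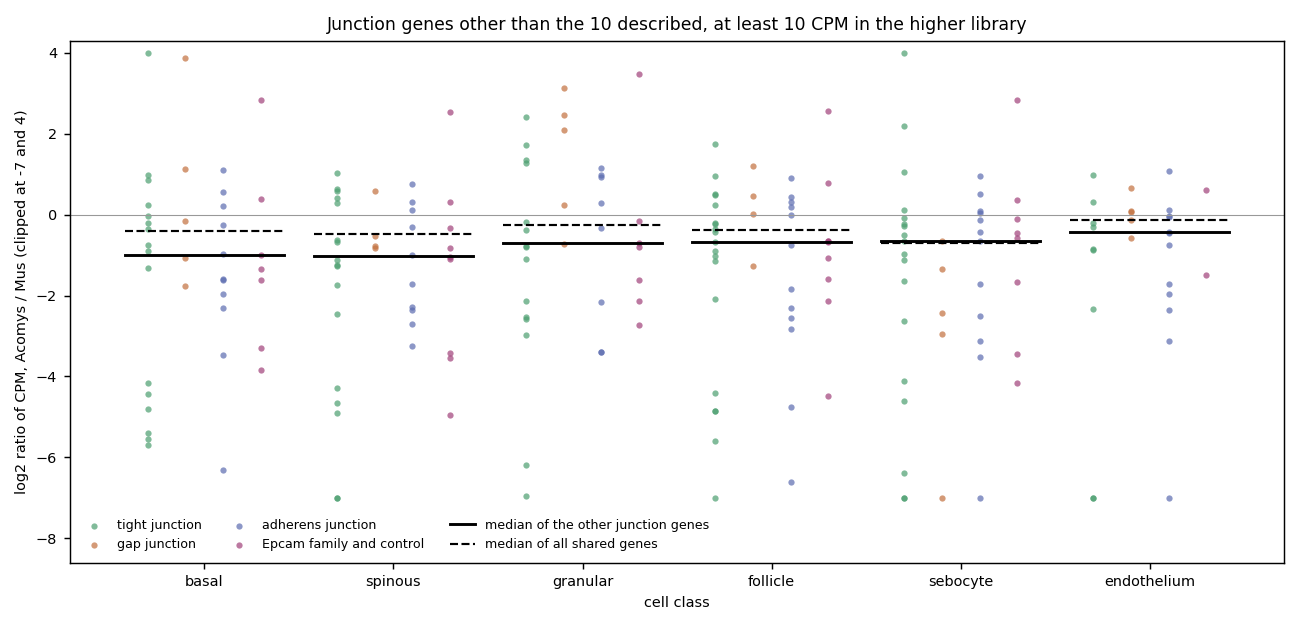
Log2 ratio of Acomys to Mus CPM (y axis, clipped at −7 and 4) of the junction genes other than the 10 members with at least 10 CPM in one library, by class (x axis) and list (colour). Solid lines are their medians and dashed lines the medians of all shared genes; the solid line lies below the dashed one in each class except sebocytes.

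Genes of the lists that were strongly lower in Acomys, at least 4-fold in at least 2 classes, are described next. The share of all genes passing the same rule is not given, so they are not a result about junction genes as a group. F11r, which encodes a junctional adhesion molecule, was at least 4-fold lower with an interval excluding 2-fold in all 6 classes, with 3.43 CPM in Acomys, against 74.7 CPM in Mus basal-like cells and 0 and 266 CPM in endothelium-like cells. Cldnd1, which encodes a claudin-domain protein, had 2.81 CPM in Acomys, against 145 CPM in Mus basal-like cells, 51.6-fold lower (32.6 to 87.1). Cgn, the gene of the tight junction plaque protein cingulin, had 0.972 CPM in Acomys, against 121 CPM in Mus granular-like cells. Cldn8 stood at 0.221 CPM in Acomys, against 57.9 CPM in Mus follicle-like cells. Tjp3, a scaffold gene of the same family as Tjp1, had 14.4 and 78.6 CPM in spinous-like cells, 5.47-fold lower (4.49 to 6.72), but 45.2 and 78.3 CPM in granular-like cells.
Of the cadherin and catenin genes, Cdh13, an atypical cadherin without an intracellular tail, had 14.8 CPM in Acomys, against 165 CPM in Mus basal-like cells, 11.1-fold lower (9.06 to 13.8). Vcl (vinculin) had 5.31 and 26.1 CPM there, Lima1 15.8 and 61.1 CPM, and Plekha7, an adherens junction scaffold gene, no UMI in Acomys and 7.39 CPM in Mus. Ctnnal1 was 5.85-fold lower in follicle-like cells (4.23 to 8.24). Ctnnb1, the gene of beta-catenin, was not among them, with 228 CPM in Acomys, against 154 CPM in Mus basal-like cells; it was picked after its values were seen.
Grhl1 and Ovol1, transcription factor genes of the lists, also passed the 4-fold rule. Grhl1, a Grainyhead-like factor, had 16.8 CPM in Acomys, against 194 CPM in Mus spinous-like cells, 11.6-fold lower (9.68 to 13.9), and Ovol1 had 4.70 and 146 CPM, 31.1-fold lower (22.3 to 44.8).
Of the listed genes other than the 10 members that reached 50 CPM in some class, 1 was at least 4-fold higher in at least 2 classes. It was Spint1, an inhibitor of the membrane proteases that can cleave Epcam protein. It had 57.3 CPM in Acomys, against 8.04 CPM in Mus basal-like cells (7.12-fold) and 241 and 21.7 CPM in granular-like cells (11.1-fold).

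Among the other genes of the lists, Spint2, a relative of Spint1, had 512 CPM in Acomys, against 390 CPM in Mus basal-like cells. Jup, the gene of plakoglobin, was at 519 CPM in Acomys, against 1041 CPM in Mus spinous-like cells. Endothelium-like cells were marked by Cldn5 (525 and 968 CPM) and Jam2 (310 and 563 CPM), the claudin and junctional adhesion molecule genes of vessels, 1.85-fold lower (1.47 to 2.32) and 1.82-fold lower (1.35 to 2.45) in Acomys.
Gjb5, a further epidermal connexin gene, did not share the scarcity of Gjb2 in Acomys. It had 617 CPM in Acomys, against 112 CPM in Mus granular-like cells, but 371 and 640 CPM in spinous-like cells.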

How the data were processed

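Single-cell suspensions of ear skin were run on the 10x Chromium system, per the labels' protocols, and the authors deposited 1 matrix of UMI counts per library over all barcodes. Cell Ranger 2.2.0 and the build mm10 are named in the submitters' processing notes; the annotation behind the Acomys gene list is not stated.
Barcodes with at least 1/10 of the 99th percentile of the 3000 largest were taken as cells (minimum 2872 UMIs in Acomys and 4695 in Mus), with at least 200 genes, at most 20% mitochondrial UMIs in Mus, and the top 0.8% per 1000 cells by a doublet score left out (183 in Acomys and 386 in Mus cells). The Acomys list names no mitochondrial genes for that filter. Counts were scaled to 10000 and logged, and 2000 variable genes without the junction lists, 30 components, 20 neighbours and Leiden resolution 1 gave the clusters (scanpy 1.11.5, leidenalg 0.10.2, Python 3.11.15). A cluster was named where at least 3 markers stood in 20% of its cells at 1.5 times the mean of other clusters. This scoring, the splitting of mixed clusters and the joining of 3 follicle marker lists into 1 class were chosen after seeing the data.
UMIs were summed per class, and CPM taken over the 15710 shared symbols, which held 66.8% of Acomys and 62.1% of Mus cell UMIs. Intervals are exact conditional binomial, Poisson or Clopper-Pearson at 95% and cover counting error only (scipy 1.17.1); log2 ratios used a prior of 0.5 counts. Free RNA was the sum over barcodes of 1 to 10 UMIs. Named other junction genes are those at least 4-fold apart, with an interval past 2-fold, in at least 2 classes with at least 50 CPM somewhere, and the 3 of highest level per class. The 2-fold call rule was tested on simulated Poisson counts at the totals of the basal-like class. The other steps, such as cell calling, clustering and naming, were not tested in this way. The 10 genes and the gene lists were chosen with earlier results of these data known. Some genes that these rules name are not reported here.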

Additional observations from a re-analysis of the deposited data

Results flagged for a closer look

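Gja1 moved in opposite directions between follicle-like and basal-like cells, by a log2 ratio of 0.63 in Acomys and −0.81 in Mus. The difference was not tested, since each species had 1 library. The follicle class holds different clusters in the libraries, as described above, and their part in this difference was not tested.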

How the results depend on the processing

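Over 14 alternatives the 13 higher calls ranged from 10 to 16 and the 18 lower calls from 16 to 20. The number of genes with the same highest class, 8, was 4 at resolution 0.5 and 6 to 8 otherwise. Of 794 values per gene and class, 648 moved by less than their counting error, 143 moved further and 3 reversed: Gja1 in granular-like cells to −0.46 with 500 UMIs and −0.083 at resolution 0.5, and Ocln in basal-like cells to 0.45 without doublet removal. All junction lists together, members included, had at 50 CPM 9 lower of 23 in basal-like (952 of 3422 over all genes), 9 of 25 in spinous-like (916 of 2877), 7 of 25 in granular-like (875 of 2473) and 9 of 27 in follicle-like cells (940 of 3460), and 3 higher and 7 lower of 20 in sebocyte-like cells (470 and 1107 of 3334). The follicle median, members included, was then 0.09 beside 0.01 over all genes. Without the members the medians at 50 CPM were −0.94 in basal-like, −0.79 in spinous-like and −0.22 in follicle-like cells. Over all genes they were −0.08, −0.20 and 0.01. The medians of the adherens list in granular-like and of the Epcam list in basal-like cells were 0.60 and 0.97. They were above 0 where they lay below it at 10 CPM. With no minimum above 10 UMIs, all junction lists together had 8 higher and 35 lower of 70 in spinous-like cells (1558 and 4263 of 10253 over all genes). In follicle-like cells they had 10 higher and 33 lower of 73 (1615 and 4025 of 10129). With intervals that did not overlap, thinned shares were lower in Acomys in 8 pairs of gene and class, and unthinned shares in 19. By the same rule thinned shares were higher in Acomys in more pairs than they were lower. They were Epcam and Gja1 in basal-like, spinous-like, follicle-like and sebocyte-like cells, and Ocln in spinous-like, granular-like and follicle-like cells. The others were Cldn1 in basal-like and spinous-like cells, and Cldn4 and Cdh3 in follicle-like cells. The unthinned shares compare cells of unlike depth, and no such count over all genes is given, so these counts are not a result about the 10 genes. Leaving out ribosomal protein genes shifted all log2 ratios by 0.02 to 0.13. The Mus granular class, 64 cells, held 252 to 946 in 7 alternatives and 64 in the others; the cause was not tested. At resolution 0.5 no Mus cluster was named endothelium. Subtracting 10% of free RNA, or taking means over cells, gave no value where a level came to 0. No paired analysis was possible because each species had 1 library. Depth limits Gjb2, Gjb6 and Tjp1 in Acomys and most genes in endothelium-like cells.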
